A study of Mus musculus with 20 samples.

Results

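This comparison sets mock-treated abdominal skin of mice that lack Zfp36 in keratinocytes against mock-treated skin of their littermate controls. It holds 10 of the 20 arrays of the study, 5 per genotype, and was read across all 22180 genes with a probe set named for a single symbol. The members were chosen by sample label alone. Each gene was represented by the probe set with the highest mean over the 20 arrays. Controls carried the genotype zfp36 fl/fl, in which the gene is flanked by recombination sites, and knockouts carried zfp36 fl/fl K14 cre, so both genotypes share the floxed allele and differ by the Cre transgene. The K14 promoter is active in basal keratinocytes, and fibroblasts, vessels, fat, muscle and leukocytes of the same piece of skin keep the gene. The other 10 arrays came from the same genotypes treated with imiquimod, which activates Toll-like receptors and causes psoriasis-like inflammation. Treatment lasted 5 consecutive days, and skin was taken 4 hours after the last application. The mock comparison asks what loss of Zfp36 does to skin that was not provoked.

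Zfp36 encodes tristetraprolin, a zinc finger protein that binds AU-rich elements in the 3' ends of short-lived mRNAs and recruits the deadenylation machinery, which leads to their decay. Messages for TNF, interleukin-1 and several chemokines are among its known targets, and mice without the protein in all tissues develop systemic inflammation. In keratinocytes the gene is induced quickly by inflammatory signals.

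The arrays were similar in scale: the median probe set value lay between 4.98 and 5.04 in the 10 mock arrays, on the log2 scale used throughout for levels and differences. Keratinocyte genes gave high values in both genotypes, with Krt14 at 10.74 ± 0.26 in the control arrays and 10.86 ± 0.20 in the knockout arrays (mean ± SD, n = 5). The arrays differed from each other in hair content. The mean of 29 hair shaft and follicle genes was 9.91, 9.96, 9.03, 9.85 and 6.08 in control replicates 1 to 5 and 9.67, 7.78, 6.06, 9.52 and 9.93 in knockout replicates 1 to 5. Control replicate 5 and knockout replicates 2 and 3 were low in these genes, and the first principal component of the 10 arrays, with 53.7% of the variance, placed the same 3 arrays at one end. In bulk skin, fewer cells of a type and less RNA per cell cannot be told apart.

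**Figure D1:**
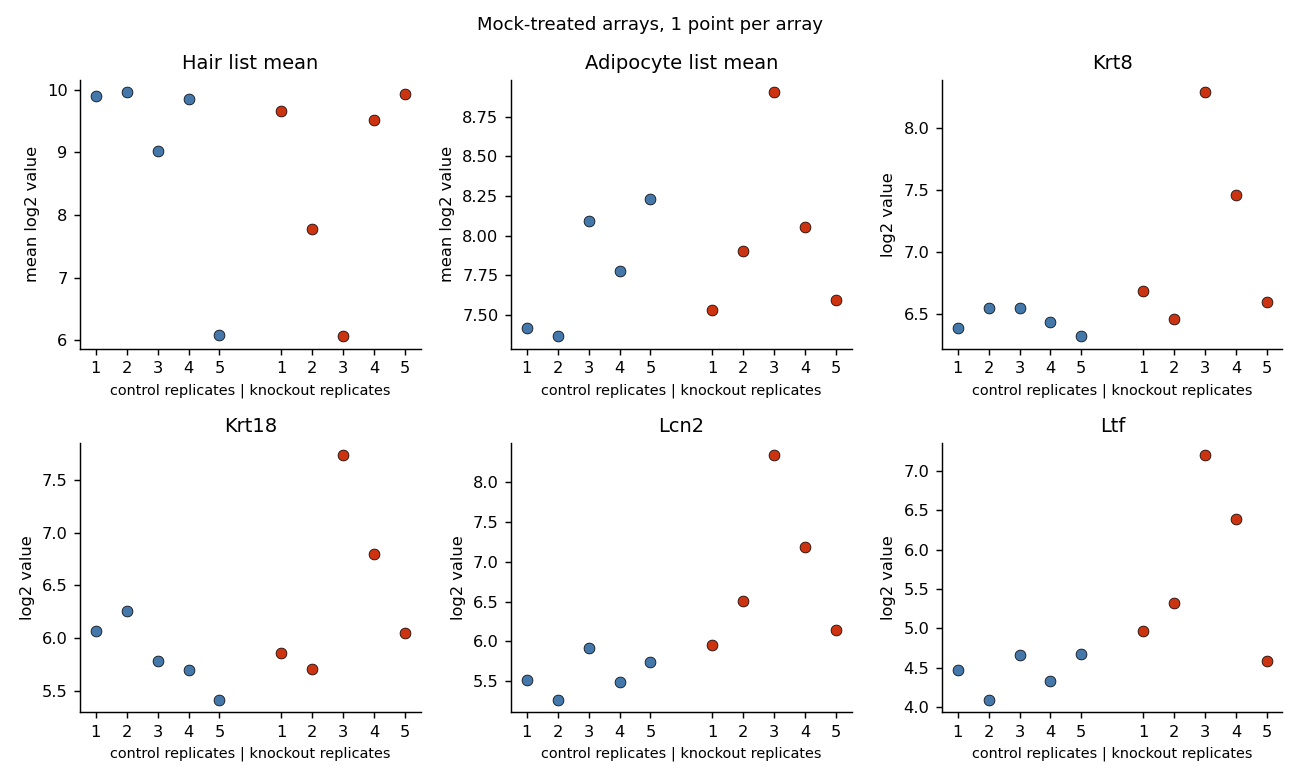
Values of the 10 mock-treated arrays on the log2 scale, 1 point per array, controls in blue and knockouts in red with the replicate number on the x axis. The top row shows the mean of the hair list, the mean of the adipocyte list and Krt8. The bottom row shows Krt18, Lcn2 and Ltf. Control replicate 5 and knockout replicates 2 and 3 are low in hair genes, and knockout replicates 3 and 4 hold the highest values of Krt8, Krt18, Lcn2 and Ltf.

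Zfp36 itself was lower in the knockouts, with a large spread between animals. Its values were 7.28, 7.45, 7.74, 7.22 and 7.61 in the control arrays and 5.12, 6.84, 7.12, 4.61 and 3.47 in the knockout arrays. No knockout array reached the lowest control, but replicates 2 and 3 lay within 0.5 of it and replicate 5 was far below. The difference was -2.03 (SE 0.51), or 4.08-fold. The two-sided exact permutation test gave p = 0.00794, which is the lowest value possible with 5 arrays in each group, while the adjusted p of Zfp36 in limma was 0.999. The knockout replicates with the highest Zfp36, 2 and 3, were also the knockout replicates lowest in hair genes. Without them and control replicate 5 the difference was -3.02 (limma adjusted p = 0.0157). That omission takes out the highest Zfp36 values of the knockouts, so a larger difference was built in. With the hair list as a covariate the difference was -2.15 (adjusted p = 0.125). Without control replicate 5 and knockout replicate 3, which held the highest knockout value, it was -2.41 (adjusted p = 0.435). Where the Zfp36 probes lie relative to the deleted segment was not analysed here.

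The paralogs of Zfp36 gave near-equal values in both genotypes. Zfp36l1, a related decay factor, measured 8.90 ± 0.12 in controls and 8.91 ± 0.09 in knockouts, a difference of 0.01 (SE 0.08) whose sign turned when the mean of its probe sets was used (-0.08) or single arrays were left out. Zfp36l2, the other paralog in skin, measured 8.11 ± 0.21 and 8.28 ± 0.22. Of the 11 measured proteins that bind AU-rich elements, Zfp36 was the only gene with an unadjusted limma p under 0.05. Of 23 deadenylation and decay factors, 0 passed limma and 1 had an unadjusted p under 0.05, the decapping scaffold Edc4 at 0.21 (adjusted p = 0.999). The median difference of the decay factors was 0.01, against 0.01 over all genes.

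Plekhg2 is the named gene next to Zfp36 on the same strand of chromosome 7. It measured 5.19, 5.19, 5.59, 5.48 and 5.25 in controls and 6.06, 6.29, 5.62, 6.43 and 6.80 in knockouts. All knockout arrays lay above all control arrays, knockout replicate 3 by 0.03 only. Replicate 3 had the highest Zfp36 among the knockouts and the lowest Plekhg2, and replicate 5 had the lowest Zfp36 and the highest Plekhg2. This order did not recur under imiquimod, where knockout replicate 2 had both the highest Zfp36 (7.41) and the highest Plekhg2 (7.28). A relation between these genes was not tested. In mock skin the Plekhg2 difference was 0.90 (SE 0.17), 1.87-fold, and did not pass limma (adjusted p = 0.182). Without knockout replicate 3 it was 1.06 with an adjusted p of 0.0216. The other 9 omissions of 1 array gave adjusted p between 0.153 and 0.641. Under imiquimod the same difference was 1.70 (limma adjusted p = 1.87e-05). The difference between both values was not past the threshold (limma interaction adjusted p = 0.522). The other measured neighbours did not follow. Rps16 and AF357399 beyond Plekhg2, and Med29, Paf1 and Samd4b on the far side of Zfp36, differed by between -0.19 and 0.04, and their groups overlapped.

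A further set of probe sets, unnamed in the annotation used here, separated the genotypes completely. With all 41345 probe sets in the fit, an alternative added after the data were seen, 7 probe sets passed limma in mock skin (0.0169%), and 5 of them carried no gene name. Probe set 17551165 measured between 4.31 and 5.09 in controls and between 9.02 and 9.61 in knockouts, a 23.2-fold higher level (adjusted p = 2.46e-12). Probe sets 17550683, 17550687 and 17551169 differed by 3.38, 3.46 and 3.62. The fifth, 17549044, differed by 0.93 on top of a high control level of 9.25 ± 0.10. Under imiquimod their genotype differences were 5.13, 3.87, 4.30, 4.04 and 1.06 in the same order, and in neither treatment did the groups overlap. Because they have no gene name here, they enter no count below.

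**Figure D2:**
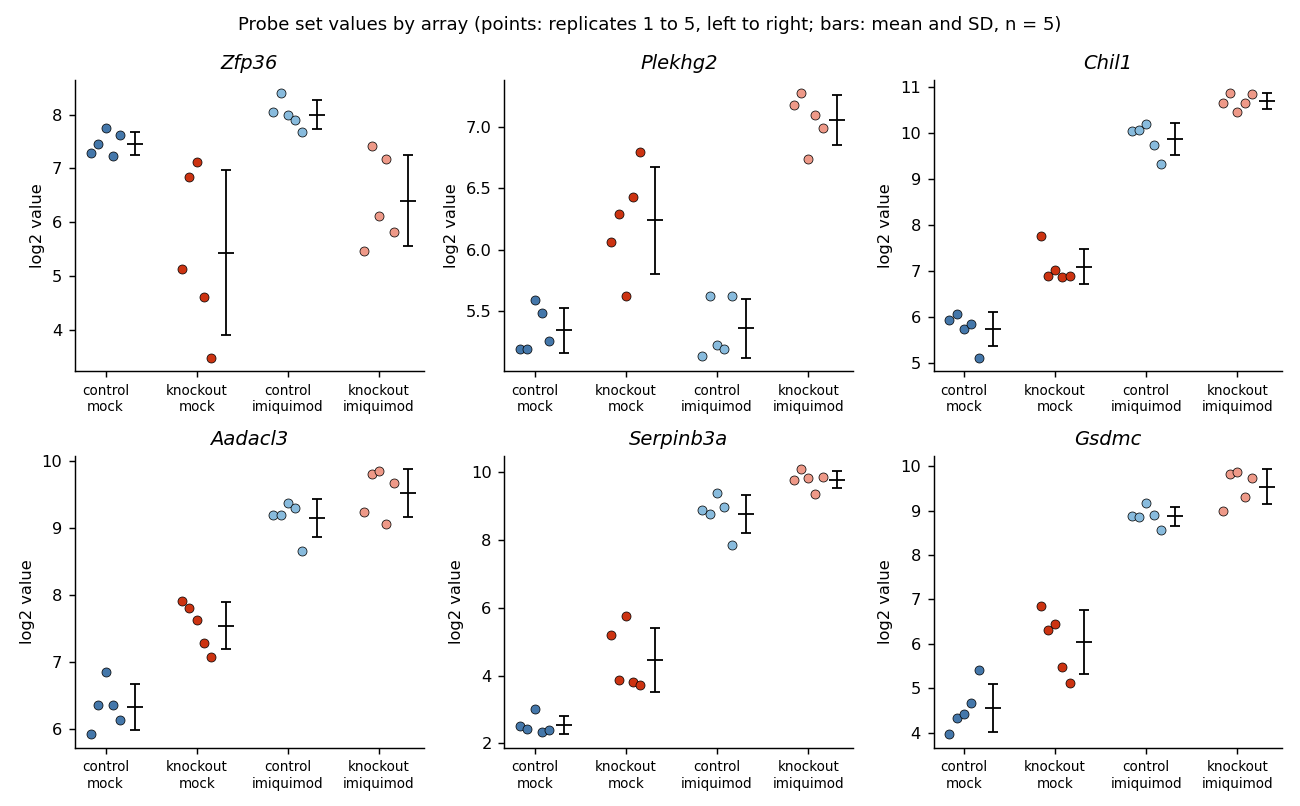
Log2 values of Zfp36, Plekhg2, Chil1, Aadacl3, Serpinb3a and Gsdmc in the 20 arrays, with replicates 1 to 5 of each group from left to right and the mean and SD (n = 5) as bars. In mock skin the knockouts lie below the controls for Zfp36 and above them for Plekhg2, Chil1, Aadacl3 and Serpinb3a, while 1 knockout of Gsdmc lies under the highest control.

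Among 22180 genes, 2 rose in mock-treated knockout skin and 0 fell (limma, Benjamini-Hochberg adjusted p under 0.05), which is 0.00902% of the genes tested. At an unadjusted p under 0.05 there were 708 genes (3.19%), 399 higher (1.8%) and 309 lower (1.39%). A share of 0.05 would be expected there without any genotype difference, which is more than was seen. The genes that rose were Chil1, which encodes a secreted chitin-binding protein without chitinase activity, and Aadacl3, a member of the arylacetamide deacetylase family of esterases. Their sequences around the transcription start, from 250 bases before to 50 after, are shown with those of Serpinb3a, the gene with the largest positive difference, and Plekhg2, so that the starts can be compared. They are RefSeq windows of build GRCm38.p6, read 5' to 3' along the gene, and lie at chr1:134181906-134182205 (plus strand), chr4:144463707-144464006 (minus strand), chr1:107052254-107052553 (minus strand) and chr7:28372613-28372912 (minus strand), in this order. Capitals mark TATAAA, searched on both strands.
Chil1: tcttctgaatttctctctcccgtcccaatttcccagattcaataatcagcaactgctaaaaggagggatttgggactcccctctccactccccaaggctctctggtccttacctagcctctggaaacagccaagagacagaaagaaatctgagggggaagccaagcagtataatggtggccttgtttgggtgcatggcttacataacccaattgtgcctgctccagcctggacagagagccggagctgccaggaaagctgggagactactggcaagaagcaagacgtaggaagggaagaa
Aadacl3: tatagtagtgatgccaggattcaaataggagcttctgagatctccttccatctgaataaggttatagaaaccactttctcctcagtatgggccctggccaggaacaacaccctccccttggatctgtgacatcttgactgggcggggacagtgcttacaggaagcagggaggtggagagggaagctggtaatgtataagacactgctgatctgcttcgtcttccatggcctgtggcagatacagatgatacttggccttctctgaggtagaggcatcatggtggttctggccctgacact
Serpinb3a: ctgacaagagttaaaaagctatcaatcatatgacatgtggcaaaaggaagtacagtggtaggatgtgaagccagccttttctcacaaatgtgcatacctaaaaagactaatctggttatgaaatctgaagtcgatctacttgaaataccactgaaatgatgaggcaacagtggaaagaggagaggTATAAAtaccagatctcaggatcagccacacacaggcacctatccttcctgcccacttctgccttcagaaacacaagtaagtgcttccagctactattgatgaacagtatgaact
Plekhg2: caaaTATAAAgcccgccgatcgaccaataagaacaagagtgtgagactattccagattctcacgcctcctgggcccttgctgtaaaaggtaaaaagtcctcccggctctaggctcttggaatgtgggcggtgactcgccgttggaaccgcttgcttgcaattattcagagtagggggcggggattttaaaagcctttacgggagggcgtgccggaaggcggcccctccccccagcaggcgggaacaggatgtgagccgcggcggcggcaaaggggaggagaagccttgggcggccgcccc
The motif TATAAA was found in the Serpinb3a and Plekhg2 windows and in 13.6% of all 32851 windows of this length. TGANTCA, the core bound by AP-1, and a form of the NF-kB motif (GGG, 3 free bases, TTCC) were in none of these 4 windows and in 7.81% and 5.56% of all windows. A match or its absence describes these letters only.

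Chil1 measured 5.93, 6.07, 5.74, 5.85 and 5.11 in controls and 7.76, 6.90, 7.02, 6.88 and 6.90 in knockouts. The lowest knockout array was above the highest control array, and knockout replicate 1 stood apart at the top. The difference was 1.35 (SE 0.19), 2.55-fold (limma adjusted p = 0.0164). It passed in 23 of 28 alternatives and its value ran from 1.19 to 1.45 over all 28. It did not pass without control replicate 4 (adjusted p = 0.0509), without the 3 hair-low arrays (0.0783), without knockout replicates 3 and 4 (0.0758), with the mammary list as a covariate (0.0994) or when only the 10 mock arrays were fitted (0.524), where no gene passed. Other genes of the chitinase family, which lie near each other in sequence, gave differences between -0.14 (Chil5) and 0.06 (Chil6), with Chil3 at 0.06 and Chil4 at 0.04. Their control means ran from 2.80 (Chia1) to 4.09 (Chil6), low levels at which a difference could be missed.

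Aadacl3 measured 5.92, 6.36, 6.85, 6.36 and 6.14 in controls and 7.91, 7.81, 7.62, 7.28 and 7.08 in knockouts. The groups did not overlap, and the gap between them was 0.23. The difference was 1.21 (SE 0.19), 2.32-fold (limma adjusted p = 0.0488), close to the threshold. It passed in 13 of 28 alternatives. Leaving out any single array other than control replicate 3 or knockout replicate 5 ended the call, with adjusted p between 0.0525 and 0.261, while the difference stayed between 1.11 and 1.35. Under imiquimod Chil1 differed by 0.82 and Aadacl3 by 0.38 between genotypes (limma adjusted p = 0.0554 and 0.545), and neither genotype effect was shown to depend on treatment (interaction adjusted p = 0.746 and 0.588).

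Serpinb3a, an intracellular inhibitor of serine and cysteine proteases made by squamous epithelia, had the largest measured positive difference and missed the threshold. Its controls measured 2.52, 2.42, 3.0, 2.32 and 2.40, near the bottom of the array's range, and its knockouts 5.18, 3.87, 5.75, 3.80 and 3.71. No arrays overlapped, and knockout replicates 1 and 3 were the highest. The difference was 1.93 (SE 0.33), 3.81-fold (limma adjusted p = 0.0774). The controls were not shown to be above background, so the fold may be a lower bound. Without knockout replicate 5 the adjusted p was 0.0263, and the other 9 omissions of 1 array gave 0.0525 to 0.310. Its close copies Serpinb3c and Serpinb3d, which could share probes with it, differed by 0.08 and -0.02 at control means of 2.24 and 3.41, low levels at which a difference could be missed.

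Gsdmc, an epithelial member of the gasdermin family of pore-forming proteins, was added after its values were seen. It measured 3.96, 4.34, 4.43, 4.67 and 5.41 in controls and 6.86, 6.31, 6.45, 5.47 and 5.12 in knockouts. Knockout replicate 5 lay under control replicate 5, so the groups overlapped. The difference was 1.48 (SE 0.29; limma adjusted p = 0.221). Without knockout replicate 5 it was 1.71 with an adjusted p of 0.0263, while the other 9 omissions of 1 array gave adjusted p between 0.0706 and 0.833. Its copies Gsdmc2 and Gsdmc3 differed by -0.15 and 0.21 at low control means of 2.58 and 2.49.

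These genes were also measured under imiquimod, and the following levels were not tested against each other. In imiquimod-treated controls the means were 9.87 for Chil1, 9.14 for Aadacl3, 8.77 for Serpinb3a and 8.87 for Gsdmc, against 5.74, 6.33, 2.53 and 4.56 in mock-treated controls. The mock-treated knockout means of 7.09, 7.54, 4.46 and 6.04 lay between both. Plekhg2 was different in this respect, with 5.36 in imiquimod-treated and 5.34 in mock-treated controls. With the hair list as a covariate all 5 genes passed limma, with adjusted p of 0.0108 for Chil1, Aadacl3, Serpinb3a and Gsdmc and 0.0133 for Plekhg2. Without the 3 hair-low arrays none of the 5 passed, with adjusted p of 0.0783 for Chil1 and Plekhg2, 0.856 for Aadacl3, 0.402 for Serpinb3a and 0.525 for Gsdmc.

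Large differences were few. A change of 2-fold or more was measured for 15 genes (0.0676%), 10 higher (0.0451%) and 5 lower (0.0225%), and the 95% interval of the difference excluded 2-fold in either direction for 21810 genes (98.3%). These counts include genes of low value, not shown to be above background, for which a difference could be missed. In 91 genes (0.41%) the 5 knockout arrays did not overlap the 5 control arrays, 42 higher (0.189%) and 49 lower (0.221%). A random order of the arrays separates a gene this completely with a probability of 0.00794, a larger share than the 0.41% seen. Lack of overlap alone therefore does not mark a gene as changed. Of these 91, 28 had provisional or non-coding symbols. Beside Chil1, Aadacl3, Serpinb3a and Plekhg2, the higher genes with the largest differences were Lcn2, Lgals12, Il1b, Ptk6, Cyp2d40 and Snhg11. None of these 6 passed limma (adjusted p = 0.999 each).

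Lcn2 encodes lipocalin 2, an iron-scavenging antimicrobial protein. It measured 5.52, 5.27, 5.92, 5.49 and 5.74 in controls and 5.96, 6.51, 8.33, 7.18 and 6.14 in knockouts, a difference of 1.24 (SE 0.40). The highest values were in knockout replicates 3 and 4. The same 2 arrays were highest in Krt8, a keratin of simple epithelia, which measured 6.39, 6.55, 6.55, 6.44 and 6.32 in controls and 6.69, 6.46, 8.29, 7.46 and 6.60 in knockouts. They were also highest in Krt18, Krt19, the milk protein Csn3 (4.85 and 4.59, against at most 4.01 in the other mock arrays) and Dmbt1, a mucosal scavenger receptor (6.21 and 5.64, against at most 3.99). Lactoferrin, Ltf, followed the same arrays, with 4.97, 5.32, 7.20, 6.39 and 4.59 in knockouts against 4.09 to 4.67 in controls.

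Of the 11 measured mammary gland markers 0 passed limma. At an unadjusted limma p under 0.05, 4 were higher (Krt8, Krt18, Krt19 and Csn3), against 1.8% of all genes. The list's mean ran from 4.33 to 4.64 in controls and was 4.61, 4.41, 5.15, 4.95 and 4.62 in knockouts. The milk genes Csn1s1, Csn2 and Wap differed by 0.01, -0.04 and 0.04. Without knockout replicates 3 and 4, the difference was 0.62 for Lcn2, 0.52 for Ltf, 0.13 for Krt8 and 0.29 for Dmbt1. Without these arrays it was 1.45 for Chil1, 1.27 for Aadacl3 and 1.72 for Serpinb3a, with adjusted p of 0.0758, 0.175 and 0.175 in limma. Krt18, Csn3 and Dmbt1 and this omission were chosen after the values were seen.

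The remaining genes without overlap differed less. Lgals12, a galectin of fat cells, was at 6.95 ± 0.20 in controls and 7.58 ± 0.39 in knockouts, with its highest value, 8.21, in knockout replicate 3, which also had the highest mean of the adipocyte list (8.91). Ptk6, an epithelial tyrosine kinase, was at 6.19 ± 0.26 and 6.73 ± 0.21. Cyp2d40, a cytochrome P450, lay between 3.67 and 4.63 in controls and within 4.68 to 4.77 in knockouts, and the non-coding Snhg11 at 5.15 ± 0.18 and 5.55 ± 0.25.

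On the lower side the largest differences without overlap, after Zfp36, were small. Zfp820, a zinc finger gene, was at 3.18 ± 0.12 in controls and 2.75 ± 0.13 in knockouts, and Spink8, of the Kazal protease inhibitors, at 3.95 ± 0.27 and 3.58 ± 0.19. The difference was -0.36 for Ankrd45 (adjusted p = 0.725, the lowest of these genes), -0.34 for Mamdc4, -0.33 for Esm1, an endothelial proteoglycan, -0.30 for the homeobox gene Irx6, -0.30 for the somatostatin receptor Sstr5, -0.28 for neuroglobin, Ngb, and -0.28 for the co-chaperone Bag5. All 9 genes had limma adjusted p of 0.725 or more. Hamp2, a hepcidin gene added after its values were seen, was 1.08 lower in the mean, from 4.72 to 7.09 in controls and from 4.17 to 4.74 in knockouts, with an overlap of the groups.

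Cytokine mRNAs that are reported ZFP36 targets were near their control values in mock skin. They were not shown to be above background, and at low levels a difference could be missed. Of 31 such targets 0 passed limma in mock skin, 21 lay above 0 and 10 below, and the median difference was 0.03 against 0.01 over all genes, of which 52.3% lay above 0. Tnf measured 5.92, 5.61, 6.01, 5.72 and 5.76 in controls and 5.74, 5.80, 5.90, 6.17 and 5.74 in knockouts. Its groups overlapped throughout, and the difference of 0.07 (SE 0.14) turned sign without knockout replicate 4 (-0.01). Il1b, the precursor of interleukin-1 beta, measured 5.00, 5.30, 5.42, 4.87 and 5.54 in controls and 5.63, 5.60, 5.90, 5.62 and 6.09 in knockouts. All its knockout arrays were higher, by 0.54 (SE 0.41) in the mean, with a limma p of 0.197 before adjustment. The standard error is pooled over all 4 groups, whose SD was 0.28 and 0.22 in mock controls and knockouts and 0.31 and 1.34 in imiquimod-treated controls and knockouts. Under imiquimod Il1b differed by 2.83.

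**Figure D3:**
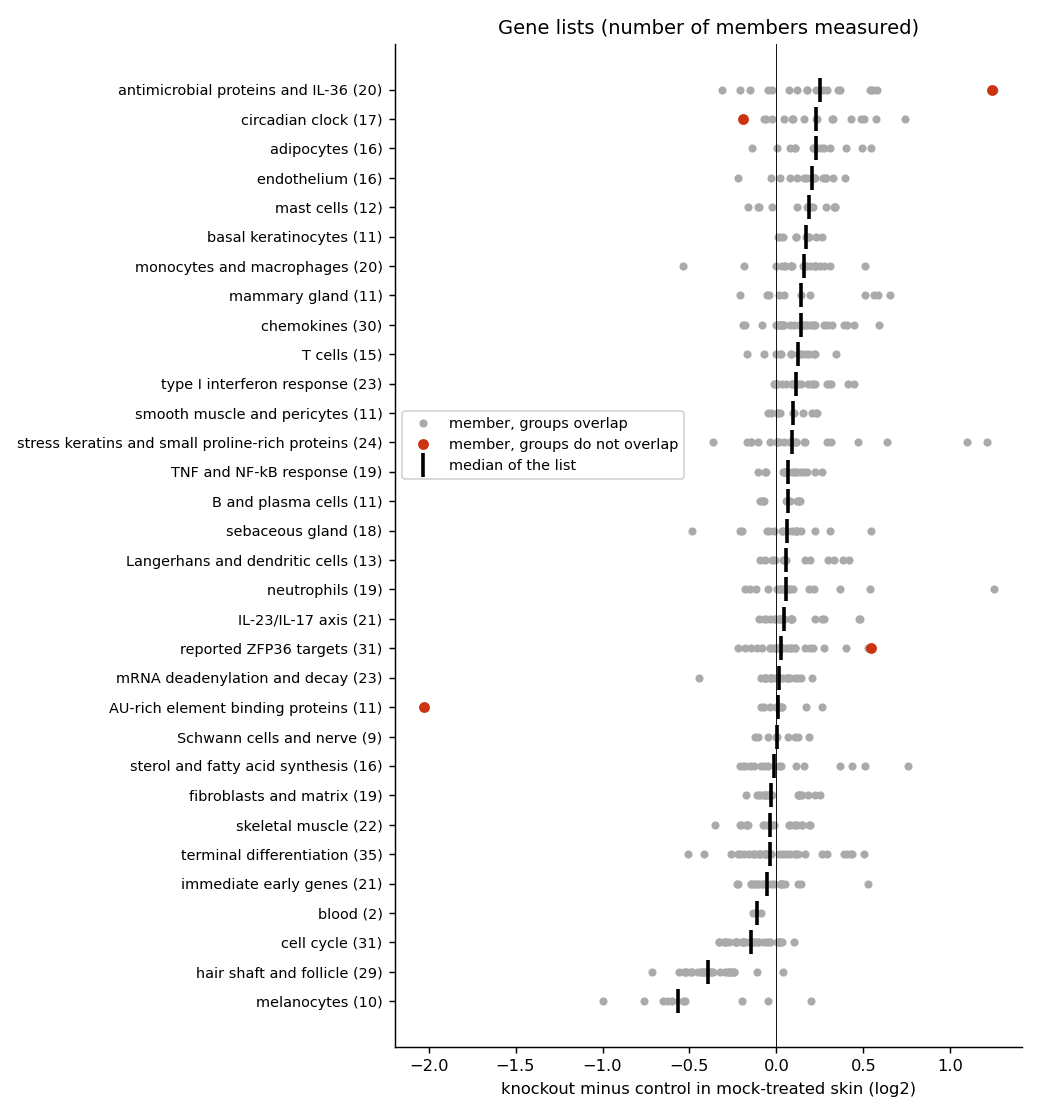
Knockout minus control difference on the log2 scale in mock skin for each measured member of 32 gene lists, with the number of members in brackets. Grey points are members whose groups overlap, red points members whose groups do not, and black bars the medians, which run from -0.57 for melanocytes to 0.25 for antimicrobial proteins and IL-36.

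Il1a, of the same family, differed by 0.40 and the stress-induced Ier3 by 0.53, with unadjusted limma p of 0.0353 and 0.00595. Other targets gave differences of 0.19 for Il6, -0.00 for the neutrophil chemokine Cxcl1, 0.03 for Cxcl2, 0.09 for Ccl20, -0.18 for Ccl3, 0.06 for Ptgs2, 0.00 for Csf2 and -0.22 for Fos. In the TNF and NF-kB list of 19 genes, 16 lay above 0 with a median of 0.07, and the 2 genes at an unadjusted p under 0.05 were the NF-kB subunit Relb at 0.26 and the TNF receptor Tnfrsf1a at 0.22, against 1.8% of all genes higher at that p. The feedback inhibitors Tnfaip3 and Nfkbia were at 0.10 and 0.18. No member passed.

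Cytokines of the IL-23 and IL-17 axis, which drives psoriasis-like skin inflammation, were likewise close to control values. Several lay near or below the median probe set value of the arrays, with mock control means of 5.06 for Il17f, 4.30 for Il19 and 3.88 for Il23r. At such levels a difference could be missed. Of 21 genes 0 passed limma, 15 lay above 0, and the median was 0.04. Il17a and Il17f differed by 0.02 and 0.09, Il22 by -0.04 and Il23a by 0.09. Il20, a keratinocyte cytokine of the IL-10 family, was at 4.52, 4.71, 4.40, 4.5 and 4.46 in controls and 5.32, 5.15, 5.25, 4.51 and 4.77 in knockouts. Knockout replicate 4 lay within the controls, and the difference of 0.48 (SE 0.17) had an unadjusted limma p of 0.01. Il23r differed by 0.26.

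Of 30 chemokines 26 lay above 0, against 52.3% of all genes, and 0 passed, with a median of 0.14. The chemokine mean of an array ran from 5.39 to 5.73 in controls and from 5.42 to 5.78 in knockouts, so the groups overlapped. Ccl17, a ligand of CCR4 on T cells, measured 4.05, 4.01, 4.03, 4.09 and 4.09 in controls and 4.07, 4.70, 4.48, 4.53 and 4.52 in knockouts. Knockout replicate 1 alone lay within the controls, and the difference was 0.41 (SE 0.12; limma adjusted p = 0.999). Cxcl11, an interferon-induced ligand of CXCR3, differed by 0.29. The 23 genes of the type I interferon response had a median of 0.11, with 20 above 0 and 0 passing. Oasl2 and Ifih1 differed by 0.45 and 0.30. Oasl2 was highest at 6.16 in control replicate 5 and at 6.2 and 6.26 in knockout replicates 3 and 5.

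Antimicrobial proteins and IL-36 cytokines had the highest median of the lists, 0.25. Of 20 genes 15 lay above 0 and 0 passed. The range of the list's mean was 5.61 to 5.87 in controls and 5.91 to 6.08 in knockouts, without overlap. Lcn2 and Ltf, described above with knockout replicates 3 and 4, had the largest differences of the list, so leaving them out was bound to bring the groups closer. Without knockout replicates 3 and 4 the list's median was 0.26. Without Lcn2 and Ltf, an alternative added after the data were seen, the mean of the other 18 ran from 5.68 to 5.93 in controls. In knockouts it ran from 5.89 to 6.13, and the groups overlapped. Defb6, a beta-defensin of high level in this skin, measured 10, 10.39, 11.05, 10.58 and 10.64 in controls and 11.22, 11.50, 10.95, 11.11 and 10.77 in knockouts. Its groups overlapped in control replicate 3 and knockout replicates 3 and 5, and the difference was 0.58 (SE 0.17; limma adjusted p = 0.999). The IL-36 cytokines, under the symbols Il1f6, Il1f8 and Il1f9, differed by 0.54, 0.29 and 0.56. The alarmins S100a8 and S100a9 differed by 0.36 and 0.54, Defb3 by 0.36, Defb4 by -0.21 and S100a7a by -0.31.

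Keratins of stressed epidermis were uneven. Of the list's 24 members, which also include small proline-rich proteins and stefins, 18 lay above 0, 0 passed, and the median was 0.09. Krt6b, a keratin of activated keratinocytes, measured 6.01, 4.27, 5.62, 5.42 and 5.58 in controls and 6.30, 5.81, 6.89, 6.18 and 7.76 in knockouts. Knockout replicate 2 lay under control replicate 1, and knockout replicate 5 was the highest. The difference was 1.21 (SE 0.38; limma adjusted p = 0.999). Its near-identical copy Krt6a was at 9.11 ± 1.04 in controls and 9.21 ± 0.92 in knockouts. Their partners Krt16 and Krt17 differed by 0.47 and 0.11. The cysteine protease inhibitors Stfa1 and Stfa3, members of a family of near copies, differed by 0.64 and 1.09. Stfa2 and Stfa2l1 differed by 0.16 and 0.10 at low control means of 2.98 and 4.06, where a difference could be missed. Sprr1b, Sprr2d and Sprr3 differed by 0.10, 0.08 and 0.00.

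Differentiation genes of the upper epidermis showed no common direction. Of 35 genes 15 lay above 0 and 20 below, 0 passed, and the median was -0.04. The suprabasal keratins Krt1 and Krt10 differed by 0.43 and 0.08, the cornified envelope proteins involucrin (Ivl), loricrin (Lor) and filaggrin (Flg) by -0.51, -0.13 and -0.13, and Tgm3 by -0.42. Klk6, a kallikrein protease, had the smallest p of the list, with 6.56 ± 0.45 in controls and 7.06 ± 0.47 in knockouts (limma adjusted p = 0.999). All 11 basal keratinocyte genes lay above 0, at 0.01 to 0.26 with a median of 0.17. None passed, and Dst, a plakin of hemidesmosomes, had the largest difference. Itga6 and Itgb4, the hemidesmosome integrins, differed by 0.19 and 0.18. Without the 3 hair-low arrays the basal median was 0.05.

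Genes of proliferation gave a median of -0.15, with 25 of 31 below 0 and 0 passing or at an unadjusted p under 0.05. Mki67, Top2a and Cdk1 differed by -0.30, -0.29 and -0.29. The cell cycle mean of an array was between 5.87 and 6.89 in controls and between 5.96 and 7.16 in knockouts. It was at the low end in control replicates 3 and 5 and knockout replicates 2, 3 and 4, and the list's median was 0.03 without knockout replicates 3 and 4. Melanocyte genes had the lowest median, -0.57, with Tyrp1 at -1.0 and Dct at -0.76, and the hair list had -0.39. The hair median turned to 0.14 without knockout replicates 3 and 4. With the hair covariate it was -0.02, but that covariate is the mean of these same genes, so a value near 0 was built in. Pigment genes spread widely within each genotype. The melanocyte mean was 6.82, 6.68, 5.41, 6.97 and 5.37 in controls and 7.02, 5.28, 5.29, 5.48 and 5.80 in knockouts. With the hair list as a covariate the melanocyte and cell cycle medians were -0.44 and -0.10, and without the 3 hair-low arrays they were -0.41 and -0.07. Immediate early genes had a median of -0.05 over 21 genes, with 0 passing.

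The core of the circadian clock is the pair of CLOCK and BMAL1, the latter encoded by Arntl, which activates Per, Cry, Nr1d and Dbp genes through E-boxes, and the Nr1d proteins repress Arntl. Of 17 measured genes 0 passed limma, but 8 had an unadjusted p under 0.05, all with higher values in knockouts, against 1.8% of all genes in that direction. The list was chosen with earlier results of these data known, and its genes regulate each other. The contrast with 1.8% is therefore not a test. The median was 0.23, with 13 above 0, and over the alternatives it ran from 0.13 to 0.29. Dbp, a transcription factor that follows the clock with a large amplitude, measured 6.59, 6.93, 7.57, 7.26 and 7.73 in controls and 7.63, 7.91, 8.58, 7.69 and 7.97 in knockouts. Its groups overlapped, and the difference was 0.74 (SE 0.22; limma adjusted p = 0.999).

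The other clock genes of this group were smaller in size. Per3 differed by 0.57, Bhlhe41 by 0.50, Nr1d1 by 0.49, Nr1d2 by 0.43, Cry2 by 0.33, Ciart by 0.32 and Bhlhe40 by 0.23. Bhlhe41, a repressor of E-box transcription, measured 4.85, 5.18, 5.07, 4.95 and 4.98 in controls and 5.17, 5.44, 5.90, 5.47 and 5.56 in knockouts. Only knockout replicate 1 fell short of the highest control, by 0.01. Arntl lay in the opposite direction without overlap, with 8.08, 7.91, 8.17, 7.90 and 7.99 in controls and 7.85, 7.81, 7.89, 7.86 and 7.67 in knockouts, a difference of -0.19 (SE 0.10). Clock, Per1 and Cry1 differed by 0.05, 0.09 and -0.07. The 8 genes were singled out after their values were seen.

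The clock mean of an array was 6.52, 6.53, 6.78, 6.60 and 6.80 in controls and 6.72, 6.97, 7.12, 6.68 and 6.88 in knockouts. The hair-low arrays, control replicate 5 and knockout replicates 2 and 3, were the highest of their genotype. With the hair list as a covariate the median was 0.20 and Dbp differed by 0.68, and without the 3 hair-low arrays these values were 0.13 and 0.68. Under imiquimod the list's median was -0.08 and 1 member passed limma, Bhlhe40 at 0.37 (adjusted p = 0.0453). Arntl was lower in knockouts there as well, at -0.35, but Nr1d1 (-0.41), Dbp (-0.36), Bhlhe41 (-0.29), Nr1d2 (-0.14) and Cry2 (-0.12) were lower too. Per3 and Ciart differed by 0.03 each. No clock gene was among those whose genotype difference depended on treatment (limma interaction adjusted p = 0.381 for Bhlhe41 and 0.476 for Dbp). The labels used here give the interval after the last application but no time of day.

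**Figure D4:**
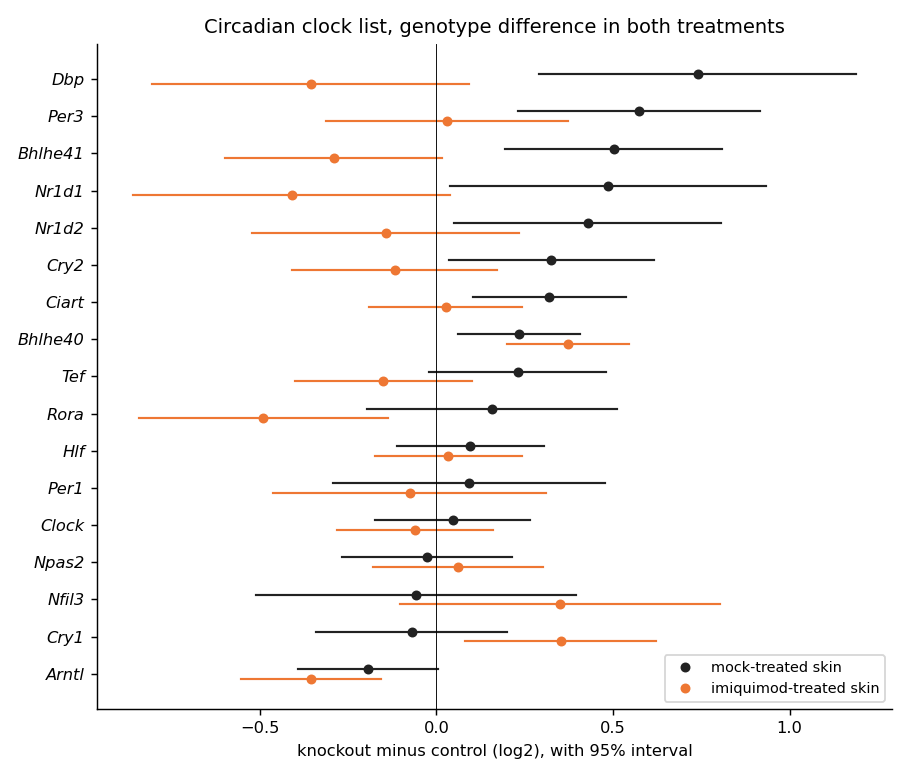
Knockout minus control difference on the log2 scale, with its 95% interval from limma, for the 17 measured clock genes in mock-treated skin (black) and imiquimod-treated skin (orange). In mock skin Dbp, Per3, Bhlhe41, Nr1d1, Nr1d2, Cry2, Ciart and Bhlhe40 lie above 0 with intervals that do not cross it, and Arntl lies lowest.

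Windows around the start of 16 of these genes were held in the RefSeq table. CACGTG, the E-box, was found in 6 of their 21 windows, which belong to 5 genes, and in 7.15% of all 32851 windows, counted on both strands. Of the 8 genes above, Bhlhe40 had no window in the table, Bhlhe41 and Ciart had the motif, and they are printed to show its place and number, with CACGTG in capitals, from chr6:145865371-145865670 (minus strand) and chr3:95882179-95882478 (minus strand).
Bhlhe41: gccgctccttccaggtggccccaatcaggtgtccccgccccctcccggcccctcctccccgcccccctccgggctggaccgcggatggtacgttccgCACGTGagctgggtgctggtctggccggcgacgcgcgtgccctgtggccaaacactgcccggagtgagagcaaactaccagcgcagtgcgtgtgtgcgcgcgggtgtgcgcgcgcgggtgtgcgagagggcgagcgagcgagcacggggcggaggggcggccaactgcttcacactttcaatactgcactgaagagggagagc
Ciart: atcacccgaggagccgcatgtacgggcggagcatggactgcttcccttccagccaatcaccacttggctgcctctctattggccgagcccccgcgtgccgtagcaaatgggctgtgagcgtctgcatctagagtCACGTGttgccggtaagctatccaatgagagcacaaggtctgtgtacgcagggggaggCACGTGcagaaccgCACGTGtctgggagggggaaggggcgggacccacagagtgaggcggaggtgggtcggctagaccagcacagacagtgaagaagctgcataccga
The Ciart window held the motif 3 times and the Bhlhe41 window 1 time. Arntl, whose values lay on the other side, had no match in its windows. Of the 8 genes, Dbp, Per3, Nr1d1, Nr1d2 and Cry2 had none either. The other genes with the motif were Per1, Cry1 and Tef, which are not among the 8. A match is not a measured site.

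Leukocyte markers gave no call in any list. The neutrophil list had a median of 0.05, with 15 of 19 genes above 0, and its defining marker Ly6g was low in both genotypes, at 3.33 ± 0.23 and 3.15 ± 0.28. Ltf was its largest difference and was highest in knockout replicates 3 and 4, as described. Monocyte and macrophage markers had a median of 0.16, with 17 of 20 above 0. T cell, dendritic cell, B cell and mast cell markers had medians of 0.12, 0.05, 0.07 and 0.19. Zap70, a T cell kinase, differed by 0.34 (limma adjusted p = 0.999). The monocyte mean ran from 6.63 to 7.64 in controls and from 6.86 to 7.51 in knockouts.

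Arg1, arginase 1, had the smallest p of the monocyte and macrophage list. It measured 7.5, 7.55, 7.39, 7.31 and 7.61 in mock controls and 6.87, 6.68, 6.74, 6.95 and 7.42 in mock knockouts. Apart from knockout replicate 5, all knockouts lay below all controls, and the difference was -0.54 (SE 0.13; limma adjusted p = 0.999, unadjusted 0.000617). Arg1 is also made by keratinocytes. In the stromal lists the median was -0.03 for fibroblasts, 0.21 for endothelium, 0.10 for smooth muscle, 0.23 for adipocytes, -0.04 for skeletal muscle and 0.00 for Schwann cells. Without knockout replicates 3 and 4 the adipocyte median was -0.10 and the endothelial median 0.06. The sebaceous gland list had 0.06, blood -0.11 over 2 genes and the 4 sex-linked genes 0.06, with Xist between 10.33 and 10.60 in all mock arrays. Of the 16 genes of sterol and fatty acid synthesis 0 passed, and Fasn, fatty acid synthase, had the largest difference at 0.76 (limma adjusted p = 0.999), with its highest values, 10.80 and 10.27, in knockout replicates 3 and 4.

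The genotype difference of mock skin was then set beside that of imiquimod-treated skin, which shares no array with it. Under imiquimod 83 genes rose (0.374%) and 38 fell (0.171%) in knockouts, 121 in all (0.546%). None of the 121 passed in mock skin, and all 121 differed less there. They were selected for their difference under imiquimod, so a smaller difference in mock is partly built in. Over all genes, 12664 of 22180 differed less in mock. Of the 83 that rose, 63 had a positive difference in mock skin (75.9%), with a median of 0.08 in mock against 1.04 under imiquimod. In mock, 4 of the 83 were without overlap, counted in either direction, against 0.41% of all genes. Of the 38 that fell, 20 were below 0 in mock (52.6%), with medians of -0.02 and -0.70. Over all genes 49.3% had the same sign in both treatments, and the correlation of both differences across the 22180 genes, which are not independent, was -0.03. Akr1c18, a hydroxysteroid dehydrogenase, was among the 83 that rose and lay well above their mock median of 0.08. It differed by 1.65 under imiquimod, and in mock skin by 0.42 (8.91 ± 0.24 against 9.32 ± 0.25, limma adjusted p = 0.999).

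Many of the strongest genes under imiquimod gave control-like values without it. Il17f differed by 0.09 in mock and 1.19 under imiquimod, Tmprss11a, a serine protease, by 0.01 and 1.62, and Krt77, an eccrine and epidermal keratin, by -0.04 and -2.32. A difference between both genotype effects passed limma for 4 genes (0.018%), all with the mock effect below the imiquimod effect. Fetub, a protease inhibitor of the cystatin superfamily, differed by 0.05 in mock and 2.12 under imiquimod (adjusted p = 0.000723 for the difference of -2.07). Cdhr1, a cadherin, differed by 0.10 and 1.11 (adjusted p = 0.00549), and Il19, an IL-10 family cytokine of keratinocytes, by -0.06 and 2.19 (adjusted p = 0.00549). For Il19 and Fetub the small mock difference changed sign when some arrays were left out.

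Arg1 was the fourth and crossed direction. Its genotype difference was -0.54 in mock and 1.06 under imiquimod, where controls measured 6.34, 6.42, 6.47, 6.15 and 6.74 and knockouts 7.40, 7.84, 7.42, 7.49 and 7.27. The difference between both effects was -1.60 (limma adjusted p = 0.000723).

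**Figure D5:**
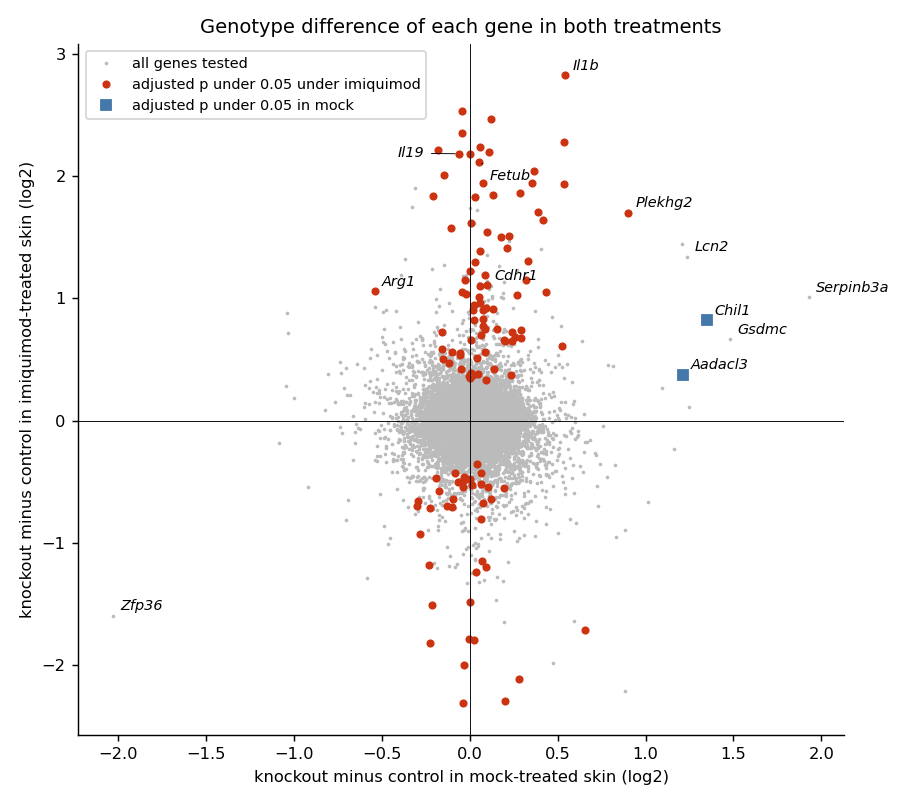
Genotype difference of each of the 22180 genes on the log2 scale, in mock-treated skin on the x axis and in imiquimod-treated skin on the y axis. Red points passed limma under imiquimod and blue squares in mock. The 121 red points spread along the y axis near 0 on the x axis, Chil1 and Aadacl3 lie to the right, and Zfp36 lies at the lower left.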

How the data were processed

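Total RNA of snap-frozen abdominal skin was extracted with Trizol and columns and 200 ng were labelled for Affymetrix arrays, per the labels' protocols. The authors deposited log2 values of 41345 probe sets for each of 20 arrays. The log base was read from the values (1.41 to 13.33), and the sources used here do not give the summarisation, normalization, software or genome build. Values were used as deposited, without a filter on low values. The number of arrays limits the precision. Of the probe sets, 23521 had 1 symbol in the annotation table, 1814 had several and 16010 none, the last groups being left out of the main counts.

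All 20 arrays were fitted with 1 mean per group in limma 3.58.1 (R 4.3.3; lmFit and eBayes, two-sided, 16 residual degrees of freedom), with Benjamini-Hochberg adjustment over 22180 genes and a threshold of 0.05. The fit was tested on simulated data. p-values measure the spread between animals, 5 per group. Named genes were those past the threshold, the 10 highest and 10 lowest without overlap (provisional symbols, receptor families and small RNAs left out), Zfp36, its paralogs and neighbours, Tnf, Krt14, per list the 2 members largest in each direction without overlap or else of smallest p, and the 10 genes of smallest p under imiquimod. The text gives part of these; other list members were named for their known role, with their values seen. Members and the 33 gene lists were chosen with earlier results of these data known, so a list's share set beside that of all genes is not a test. Alternatives changed the arrays fitted, a replicate block, the prior variance, array weights, normalization, probe set choice, dim genes (30% left out), tissue lists as covariates, and arrays left out.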

Additional observations from a re-analysis of the deposited data

Results flagged for a closer look

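For 4 genes the genotype difference was smaller in mock than in imiquimod-treated skin by the test of the difference itself (limma): Arg1 (-1.60), Fetub (-2.07), Cdhr1 (-1.01) and Il19 (-2.25), all on the log2 scale.

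Probe sets outside the named genes separated the genotypes in mock skin: 17551165 by 4.53, 17550683 by 3.38, 17550687 by 3.46, 17551169 by 3.62 and 17549044 by 0.93.

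Single arrays stood far from the other 4 of their group in 14 of 198 gene or list groups tested, where chance gives about 1 in 20. Knockout replicate 3 did so for Zfp36l1 (8.76), Snhg11 (5.98), Sstr5 (4.01) and Klk6 (6.25). Knockout replicate 1 did so for Chil1 (7.76), Ier3 (7.45), Slc45a2 (5.99) and the means of the chemokine (5.42) and Schwann cell (4.97) lists. Control replicate 5 did so for Oasl2 (6.16) and the means of the AU-rich element binding (7.78), hair (6.08) and blood (4.44) lists, and control replicate 3 for Ier3 (7.99).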

How the results depend on the processing

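In mock skin 2 genes passed. The count was 0 with only the 10 mock arrays fitted (555 at an unadjusted p under 0.05), 4 with array weights, 1 with arrays centred on their median, 1 with every probe set by itself, 5 with the hair list and 4 with the skeletal muscle list as covariate, and 1 without control replicate 5 and knockout replicates 2 and 3, where Zfp36 was the gene that passed (-3.02). Knockout replicates 2 and 3 held the highest Zfp36 values of the knockouts, so its larger difference without them was built in. Leaving out 1 array gave 0 (without control replicate 4, with 616 at an unadjusted p under 0.05) to 4 (without knockout replicate 5). Of alternatives chosen after seeing the data, all probe sets gave 7, the mammary list as covariate 0, and omission of knockout replicates 3 and 4 gave 0, with 752 and 693 genes at an unadjusted p under 0.05 in these last fits. The replicate numbers did not pair the arrays (correlations of deviations from -0.63 to 0.43 over 5 numbers), and the replicate block gave 3 genes in mock and 78 instead of 121 under imiquimod. The imiquimod count was 17 with only its arrays, 242 with array weights, 342 with hair and 74 with adipocytes as covariate and 67 over all probe sets. The interaction count of 4 was 8 with array weights, 13 with hair, 8 with muscle, 2 without the 3 hair-low arrays and 4 to 5 with 1 array left out. Signs turned for Zfp36l1 (-0.079 with the mean of probe sets, -0.025 to 0.055 with 1 array left out), Tnf (-0.044 without knockout replicates 3 and 4, -0.009 to 0.12 with 1 left out), Fetub (-0.0305 to 0.12 with 1 left out) and Il19 (0.0073 with array weights, 0.0375 and 0.18 without 2 and 3 hair-low arrays, -0.16 to 0.036 with 1 left out). The cause was not tested. The median standard error of a difference was 0.11 on the log2 scale, which limits what 5 arrays per group can show.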

Other observations

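Gbp11, an interferon-inducible GTPase gene singled out after its values were seen, measured 3.63, 3.41, 4.06, 3.44 and 4.36 in mock controls and 4.20, 4.89, 6.05, 4.61 and 4.21 in mock knockouts, a difference of 1.01 (SE 0.28; limma adjusted p = 0.999), and differed by -0.67 under imiquimod. Knockout replicate 3 was the highest, and 2 knockouts lay under control replicate 5. Awat2, a wax synthase of sebaceous glands, measured between 4.65 and 5.57 in mock controls and between 4.42 and 4.67 in mock knockouts, a difference of -0.49 (limma adjusted p = 0.999).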
